A study of Rattus norvegicus with 20 samples.

Results

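Heme oxygenase 1 and 8 further genes of the NRF2 antioxidant system were followed in INS-1, an established insulin-secreting cell line from a rat islet tumour that stands in for beta cells. The 9 genes are Hmox1, Nqo1, Srxn1, Osgin1, Gclm, Gclc, Txnrd1, Nfe2l2 and Keap1. They were picked by gene symbol out of the 18166 genes that the array annotation names, each has exactly 1 probe set with its symbol alone, and all 9 were measured. The symbols were chosen from a view of earlier results on these same arrays and comparisons, so every value and adjusted p of the 9 genes below is a description and gives no independent support. The adjusted p-values are those of one limma model fitted to all 18166 genes, with Benjamini-Hochberg adjustment over all of them, and a gene passed the threshold when its adjusted p was under 0.05.

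The study asked how islet amyloid polypeptide (IAPP), the amyloid-forming peptide co-secreted with insulin, acts on beta cells and how C4BP, a complement inhibitor of plasma whose name is short for C4b-binding protein, changes that. According to the series design, the line was kept as 5 separate clones for 10 passages. The wells then received 77 uM monomeric IAPP alone, IAPP with 0.6 uM C4BP, 1% DMSO (the solvent of IAPP) or C4BP alone, and RNA was collected 10 h later. The treatment text of the samples gives the doses by mass, at 300 ug/ml for both proteins. The 20 arrays carry 4 title words with 5 arrays each, which are DMSO, IAPP, C4BPD and C4BP. Neither of the last pair is spelled out. The likely reading is C4BP together with IAPP for the title C4BP, and C4BP without IAPP for the title C4BPD. A separate treatment field fits the titles under that reading in 3 of 20 arrays, and in 2 of the 10 titled IAPP or DMSO, so every group here rests on the titles. The titles also number the arrays of a group from 1 to 5. The labels do not say that a number is a clone, so the p-values measure the spread between these arrays, which may be partly technical.

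Expression was read as a deposited intensity per probe set on a linear scale. Array medians lay between 170.01 and 182.36, correlations between arrays were 0.985 to 0.996, and the number of arrays limits the precision. Beta-cell markers were present. All 7 measured of the 8 listed lay above 7.48, the log2 median of all probe sets, at 8.80 to 13.52. Their summed intensity was 46913 in DMSO, 44533 in IAPP, 46804 in C4BPD and 44364 in C4BP. By limma 2 of the 7 passed as lower than in DMSO, with adjusted p-values from 0.00483 to 0.0407. They were the glucose transporter gene Slc2a2 (-0.11 log2 in IAPP and -0.14 in C4BP) and the transcription factor gene Mafa (-0.26 and -0.25). In these bulk RNA samples, fewer cells of a type and less RNA per cell cannot be told apart. None of the 5 blood-cell and 5 duct or acinar markers lay above the median, 3 of 5 fibroblast markers did (brightest at 7.78), and none of these 15 passed the threshold in a pairwise comparison by limma. The part of the marker shifts in the results below was not tested.

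NRF2, encoded by Nfe2l2, is a transcription factor that is held low in resting cells because KEAP1 hands it to a ubiquitin ligase. Electrophiles and oxidants modify KEAP1, NRF2 protein then accumulates, pairs with small MAF proteins and binds antioxidant response elements of its target genes. Much of this control acts on the protein and not on the amount of Nfe2l2 transcript. Hmox1 is a target that the repressor BACH1 also holds down, and other stress factors can raise it as well. Beta cells are known for low levels of several antioxidant enzymes, catalase and glutathione peroxidase among them.

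RefSeq promoter windows (build GRCr8, 250 bases before to 50 bases after a start site) matched 8 of the 9 genes by symbol, with 9 windows in all because Txnrd1 has 2. The gene without a window was Hmox1, which was therefore not searched. Searches for 3 motifs covered both strands, and no match overlapped another. TGACNNNGC, the core of the antioxidant response element, occurred in 3 of the 9 windows, those of Gclm, Nfe2l2 and one of Txnrd1, and in 12.1% of all 33469 windows. TGACTCA, an AP-1 site that is also the start of many NRF2 and BACH1 sites, occurred in the Srxn1 window alone among the 9 windows and in 4.63% of all windows. TGATGNAAN, an ATF4 element, occurred in none of the 9 windows and in 3.97% of all windows. The 3 stretches of 100 bases below hold the matches upstream of or across the start in windows of genes that passed the threshold. They are shown for that reason. Capitals mark the match, which lies on the opposite strand and therefore reads as its reverse complement. The Gclm stretch is chr2:213031915-213032014 on the plus strand, with the match 172 to 164 bases before the start. The Txnrd1 stretch is chr7:22755930-22756029 on the minus strand, with the match 78 to 70 bases before the start. The Srxn1 stretch is chr3:161064722-161064821 on the plus strand, with one match 62 to 56 bases before the start and another from 5 bases before it to base 2 after it. The latter is followed by gc on the printed strand (TGAGTCAgc). The pattern TGACNNNGC misses these letters only because they have G where it has C.
Gclm: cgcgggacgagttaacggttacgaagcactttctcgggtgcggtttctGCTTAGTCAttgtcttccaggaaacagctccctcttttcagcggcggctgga
Txnrd1: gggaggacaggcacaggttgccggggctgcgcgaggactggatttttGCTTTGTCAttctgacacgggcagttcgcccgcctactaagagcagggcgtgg
Srxn1: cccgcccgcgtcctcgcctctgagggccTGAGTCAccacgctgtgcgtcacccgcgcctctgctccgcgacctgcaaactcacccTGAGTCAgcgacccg
A match describes these letters in this window and was not tested as a binding site.

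Across the 4 groups, 7 of the 9 genes were highest on the arrays titled C4BP, while Nfe2l2 and Keap1, the sensor pair itself, had no difference past the threshold. By limma, 6 of the 9 genes passed the threshold as higher in IAPP against DMSO, where 1.41% of all genes were called higher and 1.97% lower. In C4BPD against DMSO 1 gene, Nqo1, passed as higher (1.17% of all genes higher, 0.765% lower). In C4BP against DMSO 7 passed as higher (2.72% of all genes higher, 3.23% lower). None of the 9 passed as lower in these 3 comparisons, which share the DMSO arrays. The median log2 difference of the 9 genes was 0.24 in IAPP, 0.09 in C4BPD and 0.36 in C4BP, beside medians over all genes of 0.0018, -0.009 and 0.0047. Nothing is read from these counts about the set, since its genes were chosen with the same comparisons in view.

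**Figure D1:**
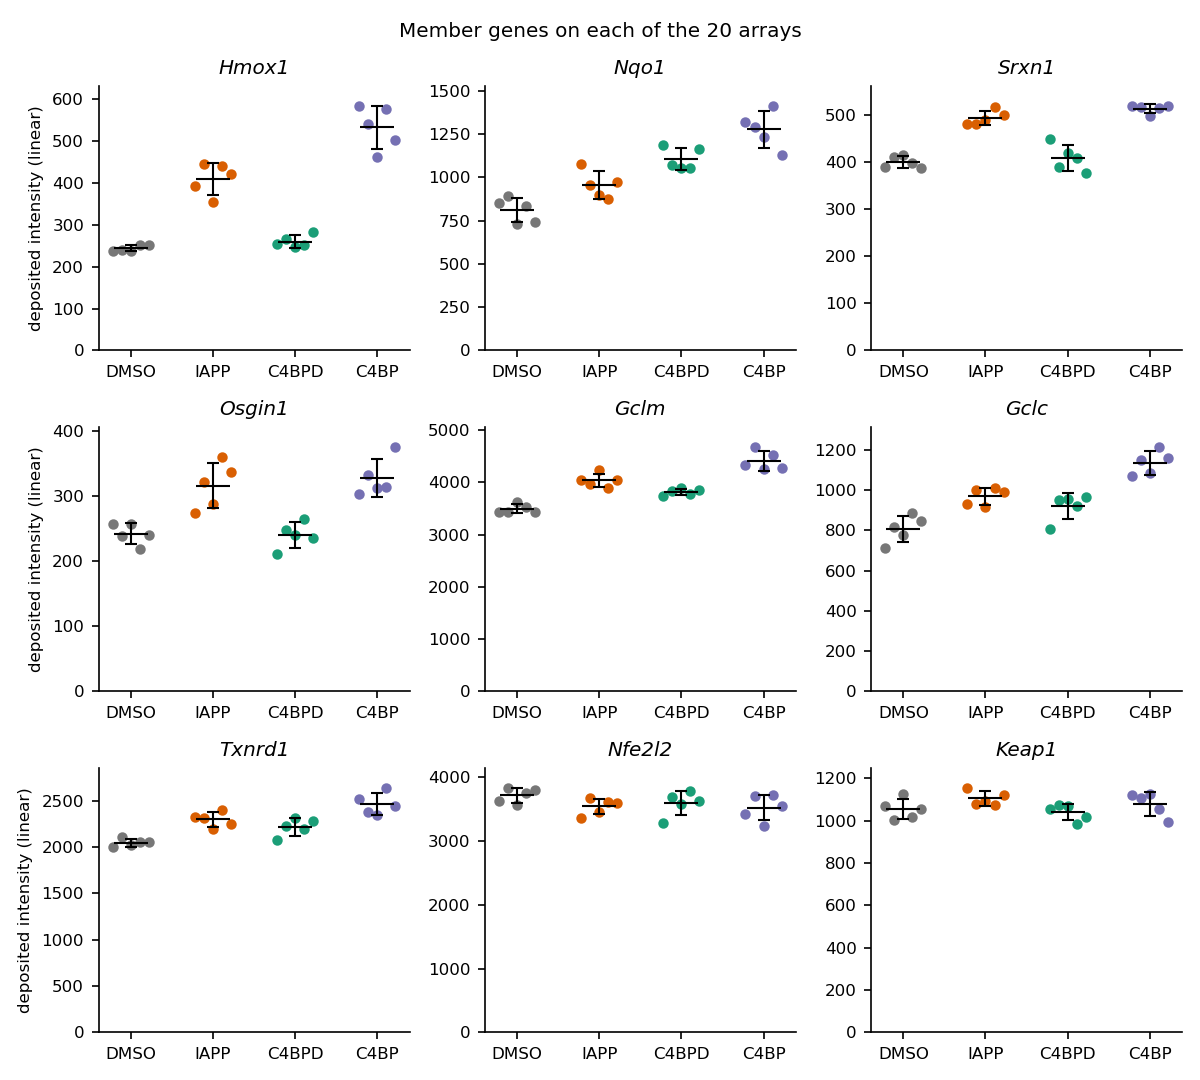
Deposited intensity (linear scale, from 0) of the 9 genes on each array, with 5 points per title group in order of replicate number, a bar at the group mean and whiskers of 1 SD. For Hmox1 the C4BP points lie between 462 and 585 and the IAPP points between 353 and 445, above all DMSO points (237 to 252), while Nfe2l2 and Keap1 overlap between all groups.

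Hmox1 encodes heme oxygenase 1, the inducible enzyme that splits heme into biliverdin, carbon monoxide and iron. On the DMSO arrays its intensity, in replicate order 1 to 5, was 238, 239.7, 237, 252 and 251 (mean 244 ± 7.32, SD, n = 5). On the C4BPD arrays it was 253, 267, 246, 251 and 282 (259.8 ± 14.7, SD, n = 5). These groups overlapped, and the log2 difference of 0.09 (95% interval -0.05 to 0.23) did not pass the threshold (limma, adjusted p = 0.648). The IAPP arrays read 391, 445, 353, 441 and 421 (410.2 ± 38.3, SD, n = 5), and the C4BP arrays 585, 541, 462, 577 and 501 (533 ± 51.5, SD, n = 5). Both of these groups lay wholly above DMSO and above C4BPD, and the lowest C4BP array lay above the highest IAPP array.

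Hmox1 thus rose 1.68-fold in IAPP against DMSO (95% interval 1.52 to 1.85; limma, adjusted p = 7.96e-07) and 2.18-fold in C4BP against DMSO (1.98 to 2.40; adjusted p = 7.5e-10). In C4BP against C4BPD it rose 2.05-fold (log2 1.03, SE 0.07; limma, adjusted p = 2.49e-08), which ranked 1 of 18166 genes by p-value. In C4BPD against IAPP it was lower by -0.66 log2 (limma, adjusted p = 2.08e-06). The step from IAPP to C4BP, 0.38 log2 (SE 0.07), passed the threshold as well (limma, adjusted p = 0.00734), and was lost when only those 10 arrays were fitted (adjusted p = 0.116) or when all arrays numbered 1, 2 or 4 were left out (0.089, 0.0577 and 0.0788). Hmox1 varied more on the arrays where it was high: the SD was 9.34% and 9.66% of the mean in IAPP and C4BP, against 3.01% in DMSO.

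Nqo1 encodes the quinone reductase NQO1, which reduces quinones in a single step and is a standard reporter of NRF2 activity. Its intensity on the DMSO arrays was 853, 889, 731, 832 and 744 (mean 809.8 ± 69.2, SD, n = 5), and on the IAPP arrays 1077, 954, 898, 875 and 973 (956 ± 78.6, SD, n = 5). The C4BPD arrays read 1189, 1071, 1052, 1052 and 1162 (1105 ± 65.3, SD, n = 5), and the C4BP arrays 1319, 1288, 1232, 1413 and 1126 (1276 ± 106, SD, n = 5). The order of the groups therefore differed from that of Hmox1: C4BPD lay above IAPP, and all C4BPD and C4BP arrays lay above all DMSO arrays, while IAPP and DMSO overlapped.

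Nqo1 was the 1 gene of the 9 that passed the threshold in C4BPD against DMSO, at 1.37-fold (95% interval 1.24 to 1.51; limma, adjusted p = 0.000662). It was 1.58-fold higher in C4BP than in DMSO (limma, adjusted p = 2.59e-06) and 0.42 log2 higher in C4BP than in IAPP (SE 0.07; adjusted p = 0.0043). The latter call was lost without all arrays numbered 2 (limma, adjusted p = 0.0545) or 4 (0.104). In IAPP against DMSO the difference of 0.24 (SE 0.07) did not pass (limma, adjusted p = 0.0639), and it passed without DMSO replicate 2 (adjusted p = 0.0452). It also passed with the replicate number as a block (limma, adjusted p = 0.0253) and with genes under the median of all probe sets left out (0.0307). In C4BP against C4BPD it was 0.21 (SE 0.07; limma, adjusted p = 0.152). The neighbours in the order of levels that did not differ past the threshold were thus DMSO and IAPP, IAPP and C4BPD (0.21; adjusted p = 0.0822), and C4BPD and C4BP. In C4BPD against IAPP, the fit with the replicate number as a block gave Nqo1 an adjusted p of 0.0351 by limma. Without IAPP replicate 1 it was 0.0378.

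Srxn1 encodes sulfiredoxin, which repairs overoxidised peroxiredoxins. Its intensity was 389, 410.1, 415, 398 and 388 in DMSO (mean 399.9 ± 12.3, SD, n = 5) and 449, 389.6, 419, 408 and 377 in C4BPD (408 ± 27.9, SD, n = 5). In IAPP it was 479.9, 479.9, 489.7, 516 and 499 (493 ± 15.4, SD, n = 5), and in C4BP 519.7, 516, 498, 514 and 519 (513 ± 8.82, SD, n = 5). The arrays fell into a low pair of groups, DMSO and C4BPD, and a high pair, IAPP and C4BP, with no overlap between the pairs and overlap inside each. Srxn1 rose by 0.30 log2 in IAPP against DMSO (SE 0.04; limma, adjusted p = 0.000174) and by 0.36 in C4BP against DMSO (SE 0.04; adjusted p = 9.83e-06). C4BP differed from IAPP by 0.06 (95% interval -0.03 to 0.15; limma, adjusted p = 0.884), and C4BPD from DMSO by 0.03 (-0.06 to 0.12; adjusted p = 0.861).

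Osgin1, an oxidative stress induced growth inhibitor that NRF2 is known to raise, had the same low and high pairs. Its intensity was 256, 239, 257, 219 and 240.1 in DMSO (mean 242 ± 15.5, SD, n = 5) and 210.4, 248, 240.3, 264 and 235 in C4BPD (239.8 ± 19.8, SD, n = 5). In IAPP it was 274, 321, 289, 359 and 337 (316 ± 34.8, SD, n = 5), and in C4BP 303, 333, 312, 315 and 376 (328 ± 29.1, SD, n = 5). Every IAPP and C4BP array lay above every DMSO and C4BPD array. The log2 difference from DMSO was 0.38 in IAPP (SE 0.08; limma, adjusted p = 0.00572), 0.43 in C4BP (SE 0.08; adjusted p = 0.000888) and -0.02 in C4BPD (95% interval -0.18 to 0.14; adjusted p = 0.964). The IAPP call was lost without all arrays numbered 2 (limma, adjusted p = 0.0668) or 4 (0.0858). C4BP and IAPP differed by 0.05 (-0.10 to 0.21; limma, adjusted p = 0.978).

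Gclm and Gclc encode the modifier and the catalytic subunit of glutamate-cysteine ligase, the enzyme of the rate-limiting step of glutathione synthesis. Gclm read 3441, 3434, 3628, 3521 and 3436 in DMSO (mean 3492 ± 84.4, SD, n = 5) and 3738, 3839.8, 3888, 3777 and 3854 in C4BPD (3819 ± 60.6, SD, n = 5). It read 4046, 3973, 4236, 3885 and 4049 in IAPP (4038 ± 129, SD, n = 5) and 4324, 4685, 4254, 4531 and 4275 in C4BP (4414 ± 187, SD, n = 5). Neighbouring groups formed steps, with C4BPD and IAPP overlapping only through the lowest IAPP array. Gclm rose by 0.21 log2 in IAPP (SE 0.04; limma, adjusted p = 0.00125) and by 0.34 in C4BP (SE 0.04; adjusted p = 2.59e-06) against DMSO. The smaller steps did not pass, although the arrays did not overlap: C4BPD against DMSO was 0.13 (SE 0.04; limma, adjusted p = 0.068) and C4BP against IAPP 0.13 (SE 0.04; adjusted p = 0.13). All C4BPD arrays above all DMSO arrays was seen in 2 of the 9 genes, Nqo1 and Gclm, and in 1.99% of all genes.

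Gclc read 713, 819, 774, 884 and 845 in DMSO (mean 807 ± 65.9, SD, n = 5) and 809, 950.4, 954, 919 and 966 in C4BPD (919.6 ± 64.2, SD, n = 5). It read 932, 999.8, 916, 1009.7 and 988 in IAPP (969 ± 42.2, SD, n = 5) and 1069.9, 1148, 1082, 1216 and 1162 in C4BP (1136 ± 60.0, SD, n = 5). All C4BP arrays lay above the arrays of the other groups, and C4BPD overlapped with both DMSO and IAPP. Gclc rose by 0.27 log2 in IAPP (SE 0.06; limma, adjusted p = 0.0114) and by 0.50 in C4BP (SE 0.06; adjusted p = 1.16e-05) against DMSO. The IAPP call was lost without all arrays numbered 2, 3 or 5 (limma, adjusted p = 0.0949, 0.0501 and 0.0572). In C4BPD against DMSO it differed by 0.19 (SE 0.06; limma, adjusted p = 0.124), and without C4BPD replicate 1, the lowest of its group, by 0.24 (adjusted p = 0.0297). In C4BP against IAPP the difference of 0.23 (SE 0.06) did not pass (limma, adjusted p = 0.0946). It passed with the replicate number as a block (limma, adjusted p = 0.00449) and with genes under the median of all probe sets left out (0.0411).

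Txnrd1 encodes cytosolic thioredoxin reductase 1, which keeps thioredoxin reduced with NADPH. Its mean intensity was 2046 ± 43.0 in DMSO, 2215 ± 92.6 in C4BPD, 2297 ± 78.0 in IAPP and 2464 ± 117 in C4BP (SD, n = 5 each). The array ranges were 1995 to 2110.3, 2072 to 2310.0, 2197 to 2402 and 2345 to 2639.7, so each group overlapped with its neighbour in this order. Its difference was the smallest of the 7 that passed in C4BP against DMSO, at 0.27 log2 (SE 0.04; limma, adjusted p = 0.000163). In IAPP against DMSO it was 0.17 (SE 0.04; limma, adjusted p = 0.0211), and the call was lost without DMSO replicate 3 (adjusted p = 0.0517) or IAPP replicate 1 (0.0504), 2 (0.0512) or 4 (0.0727). In C4BP against C4BPD it was 0.15 (SE 0.04; limma, adjusted p = 0.0442). That call was lost without replicate 1, 2, 4 or 5 of C4BP or of C4BPD, with adjusted p-values from 0.0513 to 0.126. Both calls were also lost without all arrays numbered 1, 2, 4 or 5 (limma, adjusted p up to 0.266).

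Nfe2l2 and Keap1, the transcripts of NRF2 itself and of its inhibitor, did not pass the threshold in any of the 6 pairwise comparisons by limma. Nfe2l2 had a mean intensity of 3717 ± 116 in DMSO, 3594 ± 189 in C4BPD, 3542 ± 125 in IAPP and 3526 ± 203 in C4BP (SD, n = 5 each). Its largest difference was -0.08 log2 in C4BP against DMSO (95% interval -0.17 to 0.02; limma, adjusted p = 0.459). Keap1 had means of 1054 ± 48.2, 1039 ± 38.2, 1105 ± 33.9 and 1080.4 ± 56.6 in the same order of groups (SD, n = 5 each). Its largest difference was -0.09 in C4BPD against IAPP (-0.18 to 0.00; limma, adjusted p = 0.286). All groups overlapped for both genes, and a p that misses the threshold does not show equal levels.

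**Figure D2:**
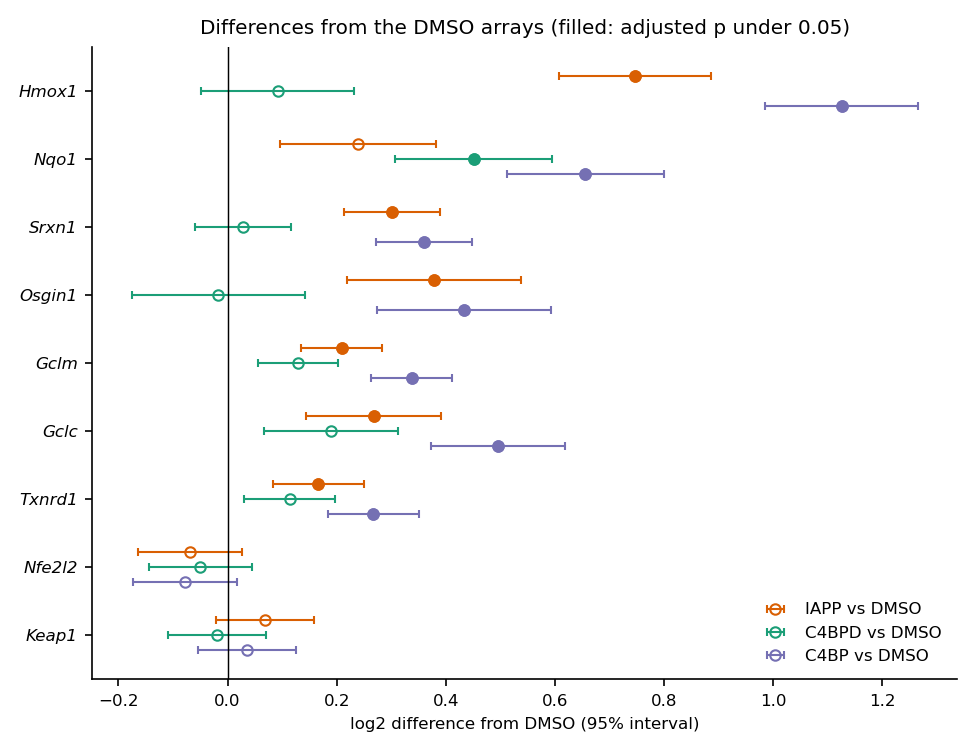
Log2 difference of each gene from the DMSO arrays, with whiskers of the 95% interval and filled symbols where limma's adjusted p over 18166 genes was under 0.05. Hmox1 lies farthest right in C4BP at 1.12 and in IAPP at 0.75, and Nqo1 is the 1 filled C4BPD symbol at 0.45. The 3 comparisons share the 5 DMSO arrays.

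The design gives each agent's difference on 2 sets of arrays that do not overlap, once without and once with the other agent. For IAPP, the difference without C4BP (IAPP against DMSO) and with it (C4BP against C4BPD) was 0.75 and 1.03 log2 for Hmox1. It was 0.30 and 0.33 for Srxn1, 0.38 and 0.45 for Osgin1, 0.21 and 0.21 for Gclm, 0.27 and 0.31 for Gclc, 0.17 and 0.15 for Txnrd1, and 0.24 and 0.21 for Nqo1. In C4BP against C4BPD 6 of the 9 genes passed the threshold as higher (0.754% of all genes did), with Nqo1, Nfe2l2 and Keap1 outside. The median of all 9 genes was 0.21, beside 0.01 over all genes of the array.

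For C4BP, the difference without IAPP (C4BPD against DMSO) and with it (C4BP against IAPP) was 0.45 and 0.42 log2 for Nqo1 and 0.09 and 0.38 for Hmox1. For Gclc it was 0.19 and 0.23, for Gclm 0.13 and 0.13, and for Txnrd1 0.11 and 0.10. Srxn1 (0.03 and 0.06) and Osgin1 (-0.02 and 0.05) had small values on both sets. In C4BP against IAPP 2 of the 9 genes, Hmox1 and Nqo1, passed as higher (0.374% of all genes were called higher and 0.231% lower). All C4BP arrays above all IAPP arrays was seen in 4 of the 9, Hmox1, Nqo1, Gclm and Gclc, and in 1.48% of all genes.

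**Figure D3:**
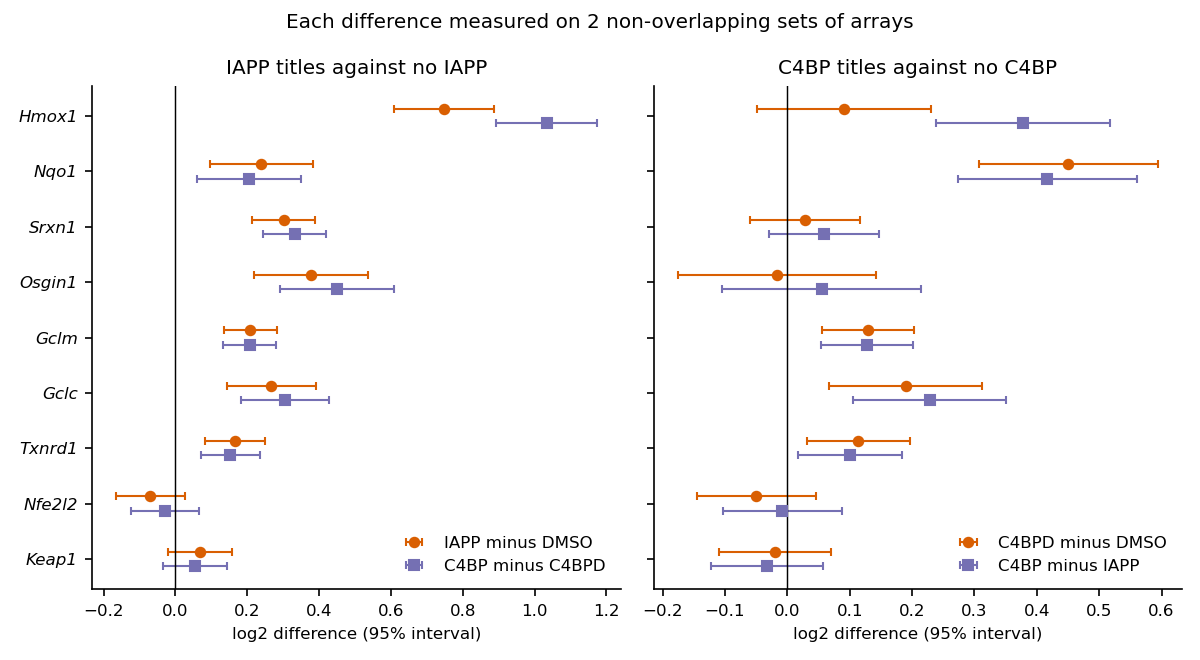
Log2 differences with 95% intervals for IAPP (left, against no IAPP) and for C4BP (right, against no C4BP), each on arrays without the other agent (circles) and with it (squares). The symbols of a pair lie 0.29 apart for Hmox1 and at most 0.07 apart for the other 8 genes. For each gene the gap is the same on both sides by arithmetic, so it is a single value.

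Whether the pairs differ was tested by the interaction, which subtracts the IAPP minus DMSO difference from the C4BP minus C4BPD difference. None of the 9 genes passed the threshold by limma, where 0.0495% of all genes did. An unadjusted p under 0.05 was seen in 688 of all 18166 genes and in 1 of the 9. That gene was Hmox1, whose interaction was 0.29 log2 (95% interval 0.09 to 0.48; limma, adjusted p = 1). The other 8 ranged from -0.03 for Nqo1 (-0.24 to 0.17) to 0.07 for Osgin1 (-0.15 to 0.30). The interval was -0.11 to 0.10 for Gclm and -0.13 to 0.10 for Txnrd1.

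C4BPD against IAPP sets the protein alone beside the peptide alone. Hmox1 (-0.66 log2), Osgin1 (-0.40; limma, adjusted p = 0.00259) and Srxn1 (-0.27; adjusted p = 0.000317) passed as lower in C4BPD, 3 of the 9 genes, where 1.82% of all genes did. Gclm (-0.08; limma, adjusted p = 0.23), Gclc (-0.08; 0.522) and Txnrd1 (-0.05; 0.521) did not pass, and Nqo1 had the opposite sign. With the replicate number as a block, 4 of the 9 genes passed by limma, the added one being Nqo1, and the calls over all genes went from 992 to 1908.

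Some of the spread inside the groups followed the replicate number in the titles. Gclc lay below its group mean on all 4 arrays with number 1 (mean deviation -0.12 log2) and above it on all 4 arrays of numbers 2, 4 and 5. Hmox1 and Nqo1 lay below their group means on all 4 arrays of number 3 (-0.13 and -0.09), and Nqo1 above on all 4 of number 1 (0.10). Nfe2l2 was below on all 4 arrays of numbers 1 (-0.07) and 3 (-0.05). The array medians moved with the number too, at 170.01 to 174.00 for number 1 and 174.67 to 182.36 for the others. With each array centred on its median, the deviation was -0.09 for Gclc and 0.14 for Nqo1 in number 1 and -0.12 for Hmox1 in number 3, each still on the same side of the group mean on all 4 arrays. Other patterns weakened. Nfe2l2 then had 1 of 4 arrays above its group mean in number 1 (-0.03) and in number 3 (-0.045). Gclc lay above on 3 of 4 arrays in numbers 2 and 4. Each number occurs once in every group, so the group differences are balanced over it.

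**Figure D4:**
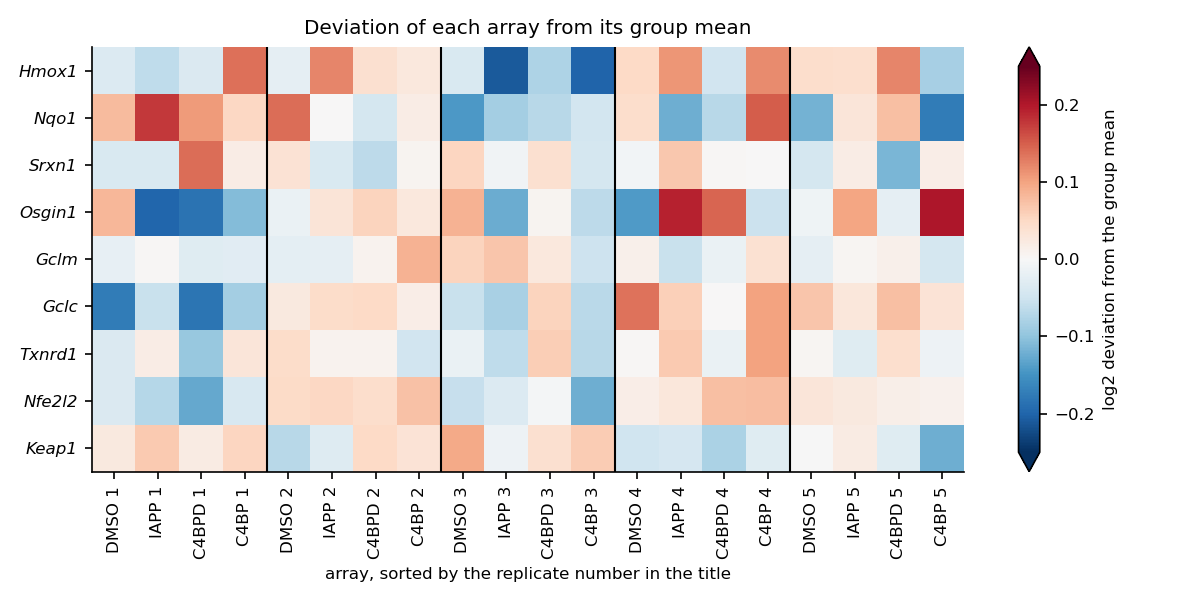
Log2 deviation of each array from the mean of its group for the 9 genes, in colour from blue (below) to red (above), with the arrays sorted by the replicate number in the title and black lines between numbers. The Gclc row is blue on all 4 arrays of number 1, and the Hmox1 and Nqo1 rows are blue on all 4 arrays of number 3.

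The wider pathway was described with 7 lists of 109 gene symbols, of which 95 were measured under the given symbol (one, Hrd1, is another name of the listed Syvn1). By limma, 17 of the 95 passed as higher and 5 as lower in C4BP against DMSO (2.72% of all genes higher, 3.23% lower). These shares also stand beside the counts per list below. The median of the 95 was 0.04 log2, beside 0.0047 over all genes. In IAPP against DMSO 5 passed as higher and 1 as lower (1.41% and 1.97% of all genes). In C4BPD against DMSO 3 and 3 did (1.17% and 0.765% of all genes), and in C4BP against IAPP 2 and 2 (0.374% and 0.231%). None passed in the interaction, where 0.0495% of all genes did. The lists were written with earlier results of these data known, so these counts are a description too.

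Of 12 measured partners and regulators of NRF2, 2 were higher and 2 lower in C4BP against DMSO by limma. Cul3, the scaffold of the KEAP1 ubiquitin ligase, fell by 0.21 log2 (SE 0.04; adjusted p = 0.00133), and Syvn1, an endoplasmic reticulum ligase also reported to act on NRF2, fell by 0.24 (SE 0.05; limma, adjusted p = 0.00173). Bach1, the repressor of Hmox1, was higher by 0.23 (SE 0.06; limma, adjusted p = 0.0191), a call lost without DMSO replicate 5 or C4BP replicate 1 or 3 (adjusted p up to 0.056). In IAPP against DMSO, 1 of the 12 passed as higher and 1 as lower by limma (1.41% and 1.97% of all genes). They were Bach1 at 0.27 (SE 0.06; limma, adjusted p = 0.0123) and Cul3 at -0.17 (SE 0.04; adjusted p = 0.0151). Of 11 genes of glutathione supply and peroxidases, 1 was higher and 1 lower in C4BP against DMSO. Slc7a11, the cystine importer that feeds glutathione synthesis, rose by 0.67 (SE 0.15; limma, adjusted p = 0.00648), from 424 ± 85.0 in DMSO to 667 ± 89.4 in C4BP (SD, n = 5 each). Glrx, a glutaredoxin, was lower by -0.27 (SE 0.07; limma, adjusted p = 0.0168), lost without replicate 4 of DMSO or of C4BP (adjusted p up to 0.0554).

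Of 14 glutathione transferases, which join glutathione to electrophiles, 5 were higher and 1 lower in C4BP against DMSO by limma. Gstt2 rose by 0.44 log2 (SE 0.05; adjusted p = 5.84e-06) and Gstm1 by 0.47 (SE 0.10; adjusted p = 0.00559), and Gsto1 fell by 0.16 (SE 0.03; limma, adjusted p = 0.00354). Gstm4 and Gstm7 were higher in C4BP than in IAPP by 0.21 each (limma, adjusted p = 0.0025 and 0.0249). The Gstm7 call was lost without IAPP replicate 1, 3 or 4 or C4BP replicate 4 (adjusted p up to 0.0782). The Gstm genes are close relatives, and whether their probes share signal was not tested. Of 16 thioredoxins, peroxiredoxins and dismutases, 2 were higher in C4BP against DMSO, catalase (Cat) by 0.25 (SE 0.04; limma, adjusted p = 0.000458) and Txnrd3, a relative of Txnrd1, by 0.33 (SE 0.06; adjusted p = 0.00195). Mean intensities of Cat were 3947 ± 175 in DMSO, 4594 ± 140 in IAPP, 4252 ± 202 in C4BPD and 4704 ± 174 in C4BP (SD, n = 5 each). In DMSO this was 11.95 log2, above 7.48, the log2 median of all probe sets. No other cell type was measured beside it. None of the 7 genes of NADPH supply passed by limma, with a median of 0.01.

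Of 16 genes of heme and iron handling, 4 were higher and 1 lower in C4BP against DMSO by limma. Slc48a1, a transporter that moves heme out of endosomes and lysosomes, rose by 0.36 log2 (SE 0.06; adjusted p = 0.000371). Blvrb, a biliverdin reductase that acts downstream of heme oxygenase, rose by 0.31 (SE 0.07; limma, adjusted p = 0.00722). Tfrc, the transferrin receptor that takes up iron, fell by 0.67 (SE 0.03; limma, adjusted p = 1.06e-10), with mean intensities of 5879 ± 171 in DMSO, 5597 ± 106 in IAPP, 4432 ± 156 in C4BPD and 3706 ± 109 in C4BP (SD, n = 5 each). Tfrc was lower in C4BP than in IAPP too (-0.60, limma, adjusted p = 1.18e-09), as was the iron transporter Slc11a2 (-0.19, adjusted p = 0.0141). The Slc11a2 call was lost without IAPP replicate 3 (limma, adjusted p = 0.0579), and in 5 of 5 fits without all arrays of a number (up to 0.133). Of 19 quinone, aldehyde and xenobiotic enzymes and exporters, 3 were higher and none lower. They were the exporter Abcc4 (0.29, SE 0.05; limma, adjusted p = 0.000636), the epoxide hydrolase Ephx1 (0.24, SE 0.05; adjusted p = 0.00614) and the aldehyde oxidase Aox1 (0.23, SE 0.06; adjusted p = 0.0339). The Aox1 call was lost without DMSO replicate 1, 2 or 3 or C4BP replicate 3 or 4 (limma, adjusted p up to 0.104), and its level lay below the median of all probe sets in both groups (6.61 and 6.83 log2).

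**Figure D5:**
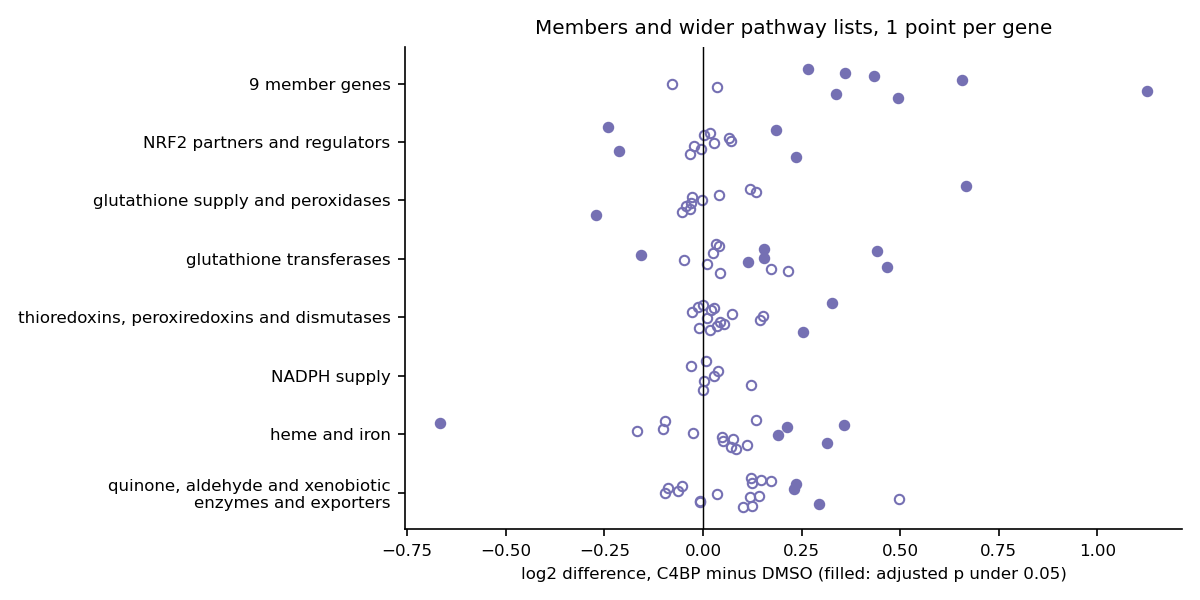
Log2 difference of C4BP minus DMSO for the 9 genes (top row) and the 7 wider lists, with 1 point per gene and filled points where limma's adjusted p was under 0.05. In the top row 7 of 9 points are filled, all to the right. The filled point at the far left is Tfrc at -0.67, and the NADPH supply row has no filled point.

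The genes most like Hmox1 and Nqo1 were found over all genes by the root-mean-square distance between the 3 log2 differences from DMSO (in IAPP, C4BPD and C4BP), which share the DMSO arrays. Closest to Hmox1 were Cpt1a (distance 0.24 log2), Opcml (0.26), Fabp3 (0.27), Tle3 (0.27) and Drd2 (0.30). Cpt1a, which brings long-chain fatty acids into mitochondria, had differences of 1.09 in IAPP, 0.31 in C4BPD and 1.16 in C4BP, against 0.75, 0.09 and 1.12 for Hmox1. All 5 distances exceeded the C4BPD difference of Hmox1 itself. Closest to Nqo1 were Armc7 (distance 0.07), Tppp3 (0.11), Slc52a3 (0.12), Rasgrp3 (0.12) and Tiam2 (0.13). Armc7 had differences of 0.23, 0.39 and 0.55, against 0.24, 0.45 and 0.66 for Nqo1. None of the 9 genes was among the closest 5 of Hmox1 or of Nqo1. The distance counts the size of the differences too, so a gene with the same order of groups but smaller differences lies far away. After array centring all 5 stayed for both genes. After quantile normalization 5 stayed for Hmox1 and 4 for Nqo1, with Psat1 as the new one.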

How the data were processed

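INS-1 RNA was hybridised to 20 arrays (Affymetrix Rat Gene 2.0). Per the submitters' processing notes the authors used Affymetrix Expression Console. The deposited values are intensities per probe set on a linear scale, read as such from the values (4.73 to 18573.71), and which normalization, software version and background handling produced them is not given in the sources used here. Of 36685 probe sets, 190 controls were left out. Symbols came from the platform annotation (18511 probe sets with 1 symbol, 575 with several, 17599 with none), and the brightest probe set with 1 symbol stood for each of 18166 genes. Intensities were turned into log2 values without a filter on dim genes. In R 4.3.3, limma 3.58.1 fitted a mean for each of the 4 groups over all 20 arrays (16 residual degrees of freedom, lmFit then eBayes), tests were two-sided with Benjamini-Hochberg adjustment over all genes, and the script was tested on simulated data. Folds are ratios of geometric means, levels are arithmetic means of intensity, and intervals cover 95%.

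The 9 genes, the lists, the markers and the motifs were chosen with earlier results of these data known. All 9 genes are named, with up to 3 genes per list by smallest p in C4BP against DMSO among those called, any list member called in C4BP against IAPP, and the 5 genes nearest to Hmox1 and to Nqo1. Samples were grouped by title. The replicate number was checked for pairing by correlating deviations from the group means over all genes. All 5 same-numbered pairs exceeded 0.1 only in C4BPD against IAPP (0.15 to 0.31, median 0.17), and in the other comparisons 2 to 4 of 5 did. The highest median was that of C4BP against IAPP, at 0.32 (-0.01 to 0.51). Alternatives were array centring, quantile normalization, other gene sets, the compared groups alone, the block, the treatment field and left-out arrays. Figures used Python 3.11.15 and matplotlib 3.10.9.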

Additional observations from a re-analysis of the deposited data

Results flagged for a closer look

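Of 36 sets of 5 arrays (9 genes in 4 groups), 2 had an array that stood apart from the other 4 by Dixon's criterion, which marks about 1 in 20 sets by chance. Srxn1 was lowest on C4BP replicate 3, at 498 against 514 for the next array, a gap of 0.732 of the group's range. Gclc was lowest on C4BPD replicate 1, at 809 against 919 for the next array, a gap of 0.716 of the range. Gclc was low on all 4 arrays with number 1, and without C4BPD replicate 1 its difference from DMSO was 0.24 log2 (limma, adjusted p = 0.0297), against 0.19 with it (adjusted p = 0.124).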

How the results depend on the processing

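Every alternative was refitted with limma. Of the 25 called values of the 9 genes, all 25 stayed past the threshold after quantile normalization, with genes under the median of all probe sets left out and with the replicate block. With arrays centred on their median 23 did, with all probe sets tested 24, and with the compared groups alone 23 (lost were Txnrd1 in C4BP against C4BPD in all 3, Txnrd1 in IAPP against DMSO under centring with adjusted p = 0.062, and Hmox1 in C4BP against IAPP with the compared groups alone). Of 250 fits without 1 array 238 kept the call and 12 lost it, all of Txnrd1. Of 125 fits without all arrays of a number 107 kept it and 18 lost it. Of the 18, 8 were of Txnrd1 (4 each in IAPP against DMSO and in C4BP against C4BPD), 3 of Gclc and 2 of Osgin1 in IAPP against DMSO, and 3 of Hmox1 and 2 of Nqo1 in C4BP against IAPP. Among list genes whose calls no single array ended, leaving out a number ended those of Blvrb and Ephx1 in 1 of 5 fits (highest adjusted p = 0.0886 and 0.059) and of Gstm4 in C4BP against IAPP in 2 of 5 (0.063). Among the others it ended those of Slc11a2, Gstm7 and Aox1 in 5 of 5 (limma, highest adjusted p = 0.133, 0.294 and 0.203). It ended that of Bach1 in 3 of 5 (0.139) and of Glrx in 2 of 5 (0.155).

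Counts of the 9 genes called ranged, over all fits with arrays left out, from 3 to 7 in IAPP against DMSO, 1 to 2 in C4BPD against DMSO, 7 to 7 in C4BP against DMSO, 0 to 2 in C4BP against IAPP, 5 to 6 in C4BP against C4BPD, 3 to 4 in C4BPD against IAPP and 0 to 0 in the interaction. Leaving out the genes under the median gave 2 in C4BPD against DMSO (Gclm added) and 7 in IAPP against DMSO (Nqo1 added). It gave 4 in C4BPD against IAPP (Nqo1 added) and 3 in C4BP against IAPP (Gclc added). The compared groups alone gave 1 in C4BP against IAPP. Counts over all genes ranged from 235 to 584 in IAPP against DMSO (614 with all arrays), 151 to 386 in C4BPD against DMSO (351), 615 to 1059 in C4BP against DMSO (1082), 18 to 97 in C4BP against IAPP (110), 200 to 522 in C4BP against C4BPD (431), 483 to 1006 in C4BPD against IAPP (992) and 0 to 10 in the interaction (9). Single arrays that moved them by over 1.5 times were IAPP 4 (405 in IAPP against DMSO), DMSO 5, C4BPD 2 and C4BPD 5 (233, 230 and 217 in C4BPD against DMSO), IAPP 2 (658 in C4BPD against IAPP), and IAPP 2, 3 and 4 and C4BP 4 and 5 (66, 58, 67, 64 and 73 in C4BP against IAPP). The interaction count of 9 went to 3 to 5 without DMSO 1 or 2, IAPP 2 or 3, C4BPD 2, 3, 4 or 5, or C4BP 3 or 4. Centring gave 221 in C4BPD against DMSO and 70 in C4BP against IAPP, all probe sets 226, 70 and 0 in the interaction, and genes above the median 205 in C4BP against IAPP. The compared groups alone, with fewer arrays behind each spread, gave 208 in C4BPD against DMSO, 663 in C4BP against DMSO, 33 in C4BP against IAPP and 223 in C4BP against C4BPD. The cause of the other shifts was not tested.

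With the replicate block the counts over all genes were 1133 in IAPP against DMSO, 797 in C4BPD against DMSO, 1884 in C4BP against DMSO, 352 in C4BP against IAPP, 958 in C4BP against C4BPD, 1908 in C4BPD against IAPP and 18 in the interaction. It gave 3 of the 9 genes in C4BPD against DMSO (Nqo1, Gclc and Gclm), and no call of the 9 genes was lost. Nqo1 was added in IAPP against DMSO (7 of the 9 called) and in C4BPD against IAPP (4 of the 9). Gclc was added in C4BP against IAPP (3 of the 9). Deviations of same-numbered arrays also correlated outside C4BPD against IAPP, with medians from 0.09 in IAPP against DMSO to 0.32 in C4BP against IAPP. The labels do not say what the number stands for. The planned choice between several probe sets of a gene could not be run, since each of the 9 has 1.

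Grouping by the treatment field called 0 of the 9 genes and 0 of all genes in each of the 6 comparisons and the interaction by limma, while 426 to 929 genes and 0 of the 9 had an unadjusted p under 0.05. All 25 called values then changed sign (log2). In IAPP against DMSO they were -0.28 for Hmox1, -0.11 for Srxn1, -0.20 for Osgin1, -0.072 for Gclm, -0.15 for Gclc and -0.064 for Txnrd1, and in C4BPD against DMSO -0.11 for Nqo1. In C4BP against DMSO they were -0.35 for Hmox1, -0.23 for Nqo1, -0.15 for Srxn1, -0.19 for Osgin1, -0.15 for Gclm, -0.14 for Gclc and -0.093 for Txnrd1, and in C4BP against IAPP -0.065 for Hmox1 and -0.23 for Nqo1. In C4BP against C4BPD they were -0.20 for Hmox1, -0.10 for Srxn1, -0.17 for Osgin1, -0.053 for Gclm, -0.079 for Gclc and -0.054 for Txnrd1, and in C4BPD against IAPP 0.13 for Hmox1, 0.062 for Srxn1 and 0.19 for Osgin1. The list genes turned as well in C4BP against DMSO: 0.041 for Cul3, 0.093 for Syvn1, -0.061 for Bach1, -0.015 for Slc7a11, 0.19 for Glrx, -0.20 for Gstt2, 0.048 for Gsto1, -0.088 for Gstm1, -0.037 for Cat, -0.17 for Txnrd3, 0.33 for Tfrc, -0.18 for Slc48a1, -0.17 for Blvrb, -0.015 for Abcc4, -0.079 for Ephx1 and -0.044 for Aox1. In C4BP against IAPP they were -0.11 for Gstm4, -0.071 for Gstm7, 0.20 for Tfrc and 0.044 for Slc11a2. The field fits the titles in 3 of 20 arrays, so this alternative mixes the title groups.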
